A study of Rattus norvegicus with 18 samples.

Results

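The 3 mature microRNAs (miRNAs) described here are rno-miR-142-5p, rno-miR-142-3p and rno-miR-150-5p, which are known from leukocytes. They were taken by name from a table of 401 miRNA rows counted in rat liver. The livers came from 3 groups of 6 libraries, all labelled 8 weeks of age and all given the strain ZDF-Leprfa/Crl: lean rats with no agent named, obese rats given vehicle, and obese rats given colesevelam. The obese Zucker diabetic fatty (ZDF) rat lacks a working leptin receptor through an inherited mutation and becomes obese and diabetic. The labels do not give the receptor genotype of the lean rats, so that group is known by its name and its phenotype label. Colesevelam is taken by mouth and keeps bile acids in the intestine by binding them. The stated purpose was to find liver miRNAs that change with colesevelam, and the lean group serves as a reference for both obese groups. The labels do not tie libraries to individual animals, so the p-values below stand for the spread from library to library, part of which may be technical.

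Both precursors are read mainly in blood cells. miR-142 is transcribed in nearly all leukocyte lineages and gives a product from each arm of its hairpin. Both arms are known as functional, and loss of the gene disturbs lymphocytes and platelets in mice. miR-150 is abundant in mature B, T and NK lymphocytes and is known for restraining the transcription factor Myb. In liver such miRNAs come mainly from resident and passing immune cells, among them Kupffer cells, lymphocytes and blood left in the organ, while hepatocytes make up most of the tissue. In a bulk sample, fewer cells of a type and less RNA per cell cannot be told apart.

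The mature sequences below are those of the deposited table, 5′ to 3′. The seed (bases 2 to 8, which pair with target mRNAs) is in capitals. The 3 have unrelated seeds, and miR-150-5p differs from both miR-142 arms in base composition.
miR-142-5p: cATAAAGTagaaagcactact
miR-142-3p: tGTAGTGTttcctactttatgga
miR-150-5p: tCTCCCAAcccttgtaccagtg
Of the 21 bases of miR-142-5p 7 are G or C (33.3%), of the 23 bases of miR-142-3p 8 (34.8%), and of the 22 bases of miR-150-5p 12 (54.5%). The 112 tested miRNAs had a median GC content of 45.5% (27.3 to 72.7%), so miR-142-5p lies on the AT-rich side and miR-150-5p on the GC-rich side. No other row of the table shares a seed with any of the 3, so no family member with the same seed was counted beside them.

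Both arms of miR-142 come from one hairpin, shown here because the arms differed so much in their counts. It is RefSeq's Mir142 in the GRCr8 assembly, chr10:73055104-73055190 on the plus strand, with the 5p and then the 3p arm in capitals.
Mir142: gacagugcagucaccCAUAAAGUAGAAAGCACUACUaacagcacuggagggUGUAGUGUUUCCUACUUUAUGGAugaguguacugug
The deposited table places miR-142-5p at chr10:75051514-75051534 and miR-142-3p at chr10:75051476-75051498, both on the minus strand, and miR-150-5p at chr1:102181499-102181520 on the plus strand. Its genome build is not given in the sources used here. Each of the 3 has 1 location in the table. In GRCr8 Mir142 lies within the span of Tspoap1 with Supt4h1 and Mpo, the gene of myeloperoxidase, as its protein-coding neighbours. RefSeq's mature sequences of both miR-142 arms are the same as the deposited ones.

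Depth differed strongly between the groups. Lean libraries held 110353 to 881450 miRNA counts, vehicle libraries 37909 to 147314 and colesevelam libraries 32936 to 122880. A count of 0 allowed up to 3.94 to 26.0 CPM (counts scaled to 1 common total by TMM-scaled library totals) in lean libraries, on average 54.3 CPM in vehicle and 56.4 CPM in colesevelam libraries, for counting error only. The hepatocyte miRNAs miR-122-5p, miR-192-5p, miR-194-5p and miR-148a-3p were present in every library and together made up 212205 to 494485 CPM, as the label of liver implies. No library held the same counts as another.

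miR-142-5p was the higher of the 2 miR-142 arms and was lower in both obese groups than in lean liver. In lean libraries 1 to 6 it held 97, 1986, 158, 641, 132 and 414 counts, or 840, 2610, 696, 1532, 838 and 2441 CPM. The lean group thus held 3 low libraries (1, 3 and 5) and 3 high ones (2, 4 and 6), over a range of 3.75-fold. Vehicle libraries 1 to 6 held 16, 38, 15, 37, 149 and 34 counts, or 399, 789, 369, 737, 973 and 400 CPM. Colesevelam libraries 1 to 6 held 14, 36, 53, 18, 119 and 31 counts, or 395, 643, 588, 482, 1193 and 587 CPM. Lean libraries 2, 4 and 6 lay above every obese library, while lean 1, 3 and 5 lay within the range of the obese ones, so the groups overlapped.

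The mean level of miR-142-5p was 1493 ± 853 CPM in lean (SD, n = 6), 648 ± 281 CPM in colesevelam and 611 ± 256 CPM in vehicle libraries. Tested by edgeR's quasi-likelihood method, with p-values adjusted over 112 miRNAs after Benjamini and Hochberg (BH), it fell 2.42-fold in vehicle against lean, with a log2 fold change of −1.27 ± 0.36 (SE; 95% interval −2.03 to −0.52; adjusted p = 0.0328). It fell 2.27-fold in colesevelam against lean, at −1.18 ± 0.36 (95% interval −1.94 to −0.43; edgeR adjusted p = 0.0236). The 2 neighbours in this order, vehicle and colesevelam, differed by 0.09 ± 0.37 (95% interval −0.68 to 0.86; edgeR adjusted p = 0.936). All 3 comparisons share libraries with each other, and the lean libraries stand in both falls. Of the 112 miRNAs, 2.68% were called lower in vehicle against lean and 9.82% in colesevelam against lean, and the log2 fold change of miR-142-5p ranked 2 and 7 from the lowest. The median over all tested miRNAs was 0.01 and −0.08.

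**Figure D1:**
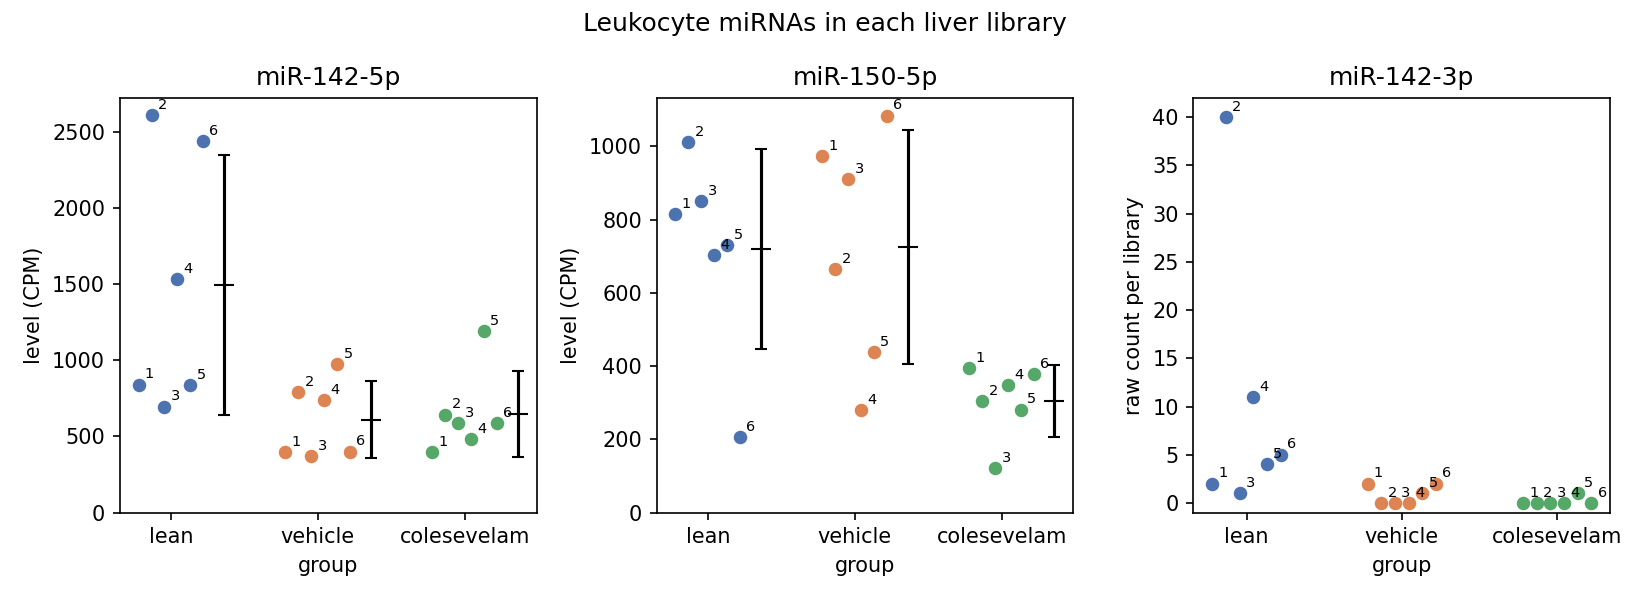
Levels of miR-142-5p and miR-150-5p in CPM (left and middle) and raw counts of miR-142-3p (right) in each of the 18 libraries; digits are replicate numbers and black bars are the mean ± SD of 6 libraries. Lean 2, 4 and 6 stand above all others for miR-142-5p, the 6 colesevelam libraries stay at or below 395 CPM for miR-150-5p, and miR-142-3p passes 11 counts in lean 2 alone.

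Library depth moved with this fall. Within groups the log2 level of miR-142-5p rose with the log2 library total (Pearson r = 0.69, permutation p = 0.00507, adjusted p = 0.00845 over 5 relations; Spearman rho = 0.73, permutation p = 0.00214; n = 18 libraries centred on their group means), and r was 0.54 without lean 2 and vehicle 5, the libraries farthest from the median. Taken group by group, r was 0.64 (lean), 0.63 (vehicle) and 0.90 (colesevelam). With the library total as a covariate, a fit added after the data were seen, miR-142-5p was at −0.24 ± 0.41 in vehicle against lean (edgeR adjusted p = 0.800) and at −0.18 ± 0.40 in colesevelam against lean (edgeR adjusted p = 0.764), so neither call was made. Of the 5 libraries with 110353 to 171316 counts, a range set after the values were seen, lean 1, 5 and 6 held 840, 838 and 2441 CPM, and vehicle 5 and colesevelam 5 held 973 and 1193 CPM, between the lean values. As the ranges of depth of the lean and obese groups hardly overlap, group and depth cannot be told apart.

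The call in vehicle against lean was also lost when single libraries were left out. Without lean 2, 4 or 6, or without vehicle 1, 2, 3, 4 or 6, the edgeR adjusted p rose above 0.05, up to 0.148, with log2 fold changes between −1.47 and −1.04 over all 12 such fits. Against lean the colesevelam call was lost without lean 2 or colesevelam 1, 2, 4 or 6 (edgeR adjusted p up to 0.0908).

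miR-150-5p showed another pattern: its means in lean and vehicle libraries lay close together, and it was lower with colesevelam. Lean libraries 1 to 6 held 94, 770, 193, 294, 115 and 35 counts, or 814, 1012, 850, 703, 730 and 206 CPM. Lean 6 lay far below the other 5 lean libraries, which spread only from 703 to 1012 CPM. Vehicle libraries 1 to 6 held 39, 32, 37, 14, 67 and 92 counts, or 973, 665, 910, 279, 438 and 1084 CPM. Colesevelam libraries 1 to 6 held 14, 17, 11, 13, 28 and 20 counts, or 395, 304, 122, 348, 281 and 379 CPM. Every colesevelam library thus lay below 5 of the 6 vehicle and 5 of the 6 lean libraries, and the groups overlapped through vehicle 4 and lean 6.

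The mean level of miR-150-5p was 725 ± 319 CPM in vehicle (SD, n = 6), 719 ± 274 CPM in lean and 305 ± 99.4 CPM in colesevelam libraries. It fell 2.42-fold in colesevelam against vehicle, at a log2 fold change of −1.27 ± 0.38 (95% interval −2.07 to −0.48; edgeR adjusted p = 0.0340), and 2.42-fold in colesevelam against lean, at −1.27 ± 0.37 (95% interval −2.05 to −0.50; edgeR adjusted p = 0.0179). Vehicle and lean, the neighbours in this order, differed by −0.00 ± 0.34 (95% interval −0.70 to 0.70; edgeR adjusted p = 0.999). In colesevelam against vehicle 3.57% of tested miRNAs were called lower, and miR-150-5p ranked 2 from the lowest log2 fold change; against lean it ranked 6. The median over all tested miRNAs in colesevelam against vehicle was −0.01.

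For miR-150-5p a relation to depth did not pass the test. Within groups its log2 level had r = −0.08 with the log2 library total (permutation p = 0.783, n = 18), from r of opposite sign in the groups: 0.33 (lean), −0.39 (vehicle) and −0.57 (colesevelam). The vehicle and colesevelam libraries had totals in similar ranges. With the library total as a covariate miR-150-5p was at −1.28 ± 0.38 in colesevelam against vehicle (edgeR adjusted p = 0.0282) and at −1.35 ± 0.53 in colesevelam against lean (edgeR adjusted p = 0.0785), so the call against vehicle was made and that against lean was not. The colesevelam counts are small, 103 over the 6 libraries, and counting error alone gives about 25.0% per library. The call against vehicle was lost in 9 of 12 fits that left out 1 library, namely vehicle 1, 2, 3 or 6 or colesevelam 2, 3, 4, 5 or 6 (edgeR adjusted p up to 0.129), with log2 fold changes between −1.39 and −1.04. That against lean was made in all 12 such fits, at log2 fold changes between −1.47 and −1.10. Both calls were lost when libraries sharing a number in their names were summed, at −1.24 against vehicle (edgeR adjusted p = 0.0714) and −1.18 against lean (edgeR adjusted p = 0.0692). The replicate block, which the sample numbers of the labels allow, gave −1.24 against vehicle (edgeR adjusted p = 0.101).

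miR-142-3p did not pass the filter on low counts, so it was not tested. It held 2, 40, 1, 11, 4 and 5 counts in lean libraries 1 to 6, then 2, 0, 0, 0, 1 and 2 counts in the vehicle libraries, and a single count, in colesevelam 5, over the 6 colesevelam libraries. These were 63 counts in lean, 5 in vehicle and 1 in colesevelam, over totals of 1972598, 399020 and 397670 counts. The mean level was 25.9 ± 15.9 CPM in lean (SD, n = 6), 13.3 ± 20.1 CPM in vehicle and 1.67 ± 4.09 CPM in colesevelam libraries, and in every obese library but vehicle 5 a count of 0 allowed a level above the lean mean. Pooled over the libraries of a group, and on unscaled totals, the level was 31.9 CPM in lean (exact Poisson 95% interval 24.5 to 40.9), 12.5 in vehicle (4.07 to 29.2) and 2.51 in colesevelam (0.0637 to 14.0). The intervals of lean and colesevelam did not overlap, but lean 2 held 40 of the 63 lean counts, and without it the lean value was 21.1 (13.4 to 31.6), which overlaps both others. These intervals leave out the spread between libraries, so they are no test of the groups.

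The balance of the arms was strongly on the 5p side. Over all libraries miR-142-5p had 3988 counts against 69 of miR-142-3p, a ratio of 57.8. The 3p arm made up 1.80% of the counts of both arms in lean (exact 95% binomial interval 1.39 to 2.30%), 1.70% in vehicle (0.554 to 3.92%) and 0.368% in colesevelam libraries (0.00931 to 2.03%). These intervals overlap and cover counting error only. Within lean libraries the 3p share ran from 0.629% in lean 3 to 2.94% in lean 5. With miR-142-3p at 0 in 3 of 6 vehicle and 5 of 6 colesevelam libraries, a comparison of the log2 arm ratio would rest on the 0.5 added to each count, and none is read here.

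Ratios within a library are free of the scaling between libraries. The ratio of miR-142-5p to miR-150-5p counts asks whether the 2 leukocyte miRNAs moved apart. Within groups their levels moved in opposite directions with the base composition of a library, as given below. The ratio is not free of this, and no ratio adjusted for it was tested. In lean libraries 1 to 6 the ratio was 1.03, 2.58, 0.819, 2.18, 1.15 and 11.8. In vehicle libraries 1 to 6 it was 0.410, 1.19, 0.405, 2.64, 2.22 and 0.370, so that vehicle 1, 3 and 6 had fewer counts of miR-142-5p than of miR-150-5p and the other 3 had more. In colesevelam libraries 1 to 6 it was 1.00, 2.12, 4.82, 1.38, 4.25 and 1.55, never below 1. The mean log2 ratio came to 1.00 ± 1.40 (SD, n = 6) for the lean group, −0.20 ± 1.28 for vehicle and 1.07 ± 0.90 for colesevelam.

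The test of that difference did not pass. By exact two-sided permutation over 924 splits of 12 libraries the log2 ratio differed by −1.20 in vehicle against lean (exact p = 0.173, BH-adjusted p = 0.346 over 12 ratio tests, of which 3 are those of the arms), by 1.27 in colesevelam against vehicle (exact p = 0.0801, adjusted p = 0.192) and by 0.07 in colesevelam against lean (exact p = 0.929, adjusted p = 0.929). The smallest p this design allows is 0.00216. That one miRNA was called and the other was not in vehicle against lean, and the reverse in colesevelam against vehicle, is therefore not shown to be a difference between them.

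**Figure D2:**
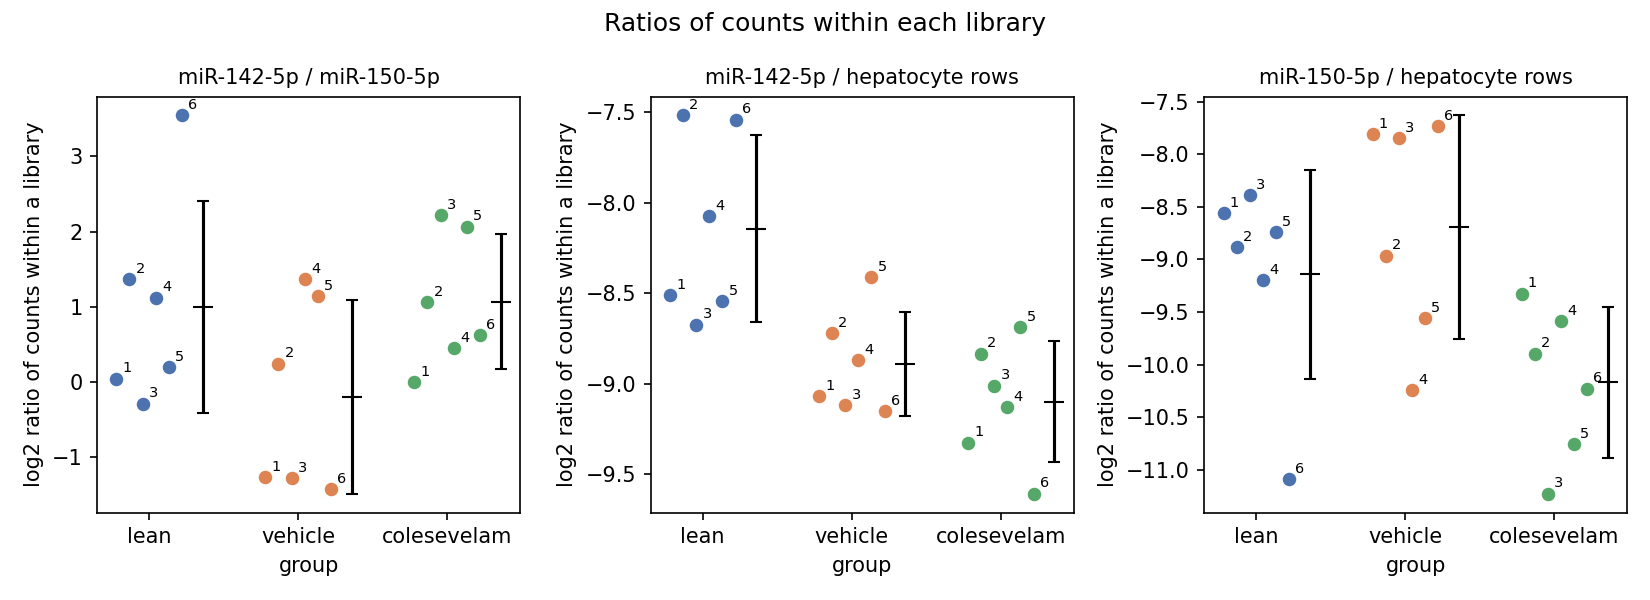
Log2 ratios of counts within each of the 18 libraries for miR-142-5p over miR-150-5p and for each over the summed hepatocyte rows (miR-122-5p, miR-192-5p, miR-194-5p and miR-148a-3p); digits are replicate numbers and black bars are the mean ± SD of 6 libraries. Only for miR-142-5p over the hepatocyte rows do 2 groups, lean and colesevelam, not overlap, and lean 6 stands apart at a log2 ratio of −11.09 for miR-150-5p. Most of the hepatocyte counts are those of miR-192-5p.

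Set against the hepatocyte rows, miR-142-5p gave 2.73, 5.45, 2.44, 3.70, 2.67 and 5.36 counts per 1000 hepatocyte counts in lean libraries 1 to 6. It gave 1.73 to 2.93 in vehicle and 1.26 to 2.41 in colesevelam libraries, so every colesevelam library lay below every lean one. The log2 ratio was lower by 0.96 in colesevelam against lean (difference −0.96, exact permutation p = 0.00216, the smallest the design can give, adjusted p = 0.0260) and differed by −0.75 in vehicle against lean (exact permutation p = 0.0130, adjusted p = 0.0779) and by −0.21 in colesevelam against vehicle (exact permutation p = 0.284). Without lean 2 or any 1 of the 6 colesevelam libraries the adjusted p rose above 0.05. Log2 differences were −1.06 to −0.83 over all 12 such tests, and the 2 groups did not overlap in any of them. In 6 of these 7 the exact permutation p was 0.00433 and the adjusted p 0.0519, and without colesevelam 6 the adjusted p was 0.0779. Most of the hepatocyte counts were those of miR-192-5p. It held a mean of 267210 of 375786 CPM in lean, 194898 of 280677 in vehicle and 249660 of 350734 in colesevelam libraries. It is also the miRNA most like miR-142-5p within groups (r = 0.92), so the ratio is largely one to miR-192-5p. Neither depth nor a ratio without miR-192-5p was tested.

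miR-150-5p gave 2.64, 2.11, 2.98, 1.70, 2.33 and 0.453 counts per 1000 hepatocyte counts in lean libraries 1 to 6, 4.40, 1.97, 4.29, 0.798, 1.32 and 4.68 in vehicle libraries, and 1.504, 1.02, 0.399, 1.25, 0.568 and 0.813 in colesevelam libraries. Its log2 ratio differed by −1.48 in colesevelam against vehicle (exact permutation p = 0.0238, adjusted p = 0.0952), by −1.03 in colesevelam against lean (exact permutation p = 0.0714, adjusted p = 0.192) and by 0.45 in vehicle against lean (exact permutation p = 0.472). None passed after adjustment, and without lean 6 the difference in colesevelam against lean was −1.42 (exact adjusted p = 0.0260).

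Within groups the 2 leukocyte miRNAs ran in opposite directions, in a relation that did not pass after adjustment. Over the 18 libraries, each centred on its group mean, miR-142-5p and miR-150-5p had r = −0.49 (permutation p = 0.0516, adjusted p = 0.0645 over 5 relations) and rho = −0.48 (permutation p = 0.0497, adjusted p = 0.0621). Without lean 2 and colesevelam 5, the libraries farthest from the median of miR-142-5p, r was −0.74. Taken group by group, r was −0.43 (lean), −0.79 (vehicle) and −0.22 (colesevelam). Lean 6 had the second highest miR-142-5p and the lowest miR-150-5p of its group, while lean 2 had the highest of both.

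Base composition moved with both. The slope of log2 level on GC content over the other tested miRNAs measures how far a library favours AT-rich or GC-rich sequences. Within groups the level of miR-142-5p fell as that slope rose (r = −0.75, permutation p = 0.00175, adjusted p = 0.00437 over 5 relations; rho = −0.67, permutation p = 0.00490), while the level of miR-150-5p rose with it (r = 0.71, permutation p = 0.00111, adjusted p = 0.00437; rho = 0.67, permutation p = 0.00639). Without vehicle 4 and lean 4 these were r = −0.79 and 0.69. In each group the sign was the same, from −0.86 in lean to −0.69 in vehicle for miR-142-5p and from 0.41 in lean to 0.96 in vehicle for miR-150-5p. After the slope was taken out, the r between the 2 miRNAs was 0.07.

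With the GC slope over all tested miRNAs, the members among them, as a covariate, the calls were made as before, at other sizes. More of the 112 tested miRNAs were called with this covariate in every comparison. The number rose from 7 to 16 in vehicle against lean and from 12 to 24 in colesevelam against vehicle. It rose from 24 to 43 in colesevelam against lean. miR-142-5p was at −0.79 ± 0.26 in vehicle against lean (edgeR adjusted p = 0.0370) and −1.09 ± 0.24 in colesevelam against lean (edgeR adjusted p = 0.000780). miR-150-5p was at −0.89 ± 0.32 in colesevelam against vehicle (edgeR adjusted p = 0.0456), −1.32 ± 0.29 in colesevelam against lean (edgeR adjusted p = 0.000627) and −0.44 ± 0.30 in vehicle against lean (edgeR adjusted p = 0.369). The mean slope per 10 percentage points of GC, over all tested miRNAs, was −0.73 ± 0.25 (SD, n = 6) over the lean group, −0.55 ± 0.28 with vehicle and −0.72 ± 0.24 with colesevelam, and the groups overlapped.

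**Figure D3:**
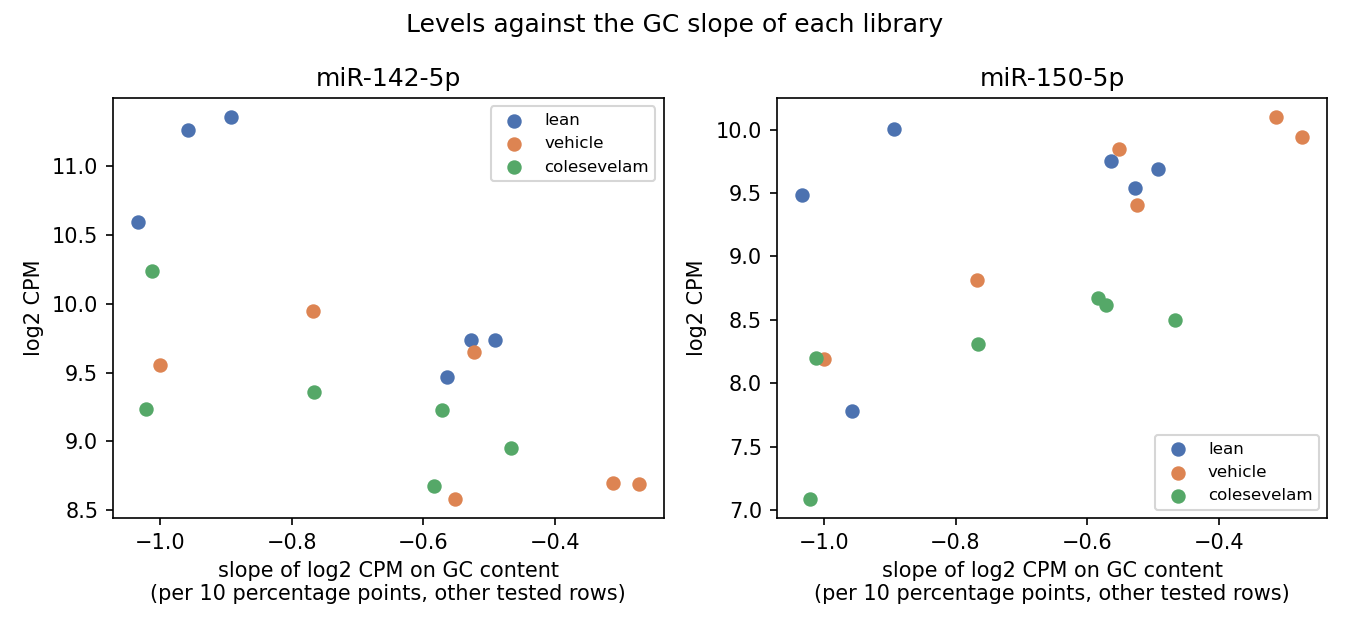
Log2 CPM of miR-142-5p (left) and miR-150-5p (right) against the slope of log2 CPM on GC content of the other tested miRNAs, 1 point per library, coloured by group. Within the groups miR-142-5p falls (r = −0.75) and miR-150-5p rises (r = 0.71) along the axis.

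The miRNAs most like each tested member within groups were ranked by Pearson r of group-centred log2 level over 18 libraries. Only the 112 tested miRNAs could rank, which leaves out miR-142-3p, miR-223-3p, miR-342-3p and miR-155-5p. For miR-142-5p the first 5 were not other leukocyte miRNAs. They were miR-192-5p (r = 0.92), a hepatocyte miRNA, miR-126a-5p (0.92), an endothelial one, miR-101b-3p (0.89), miR-101a-3p (0.88) and miR-27a-3p (0.86). Of these 5, miR-27a-3p at 52.4% and miR-192-5p at 47.6% GC lie above the median of tested miRNAs and the others below it. Its r with the hepatocyte miRNA miR-122-5p, chosen after its value was seen, was −0.86. For miR-150-5p they were miR-125b-2-3p (0.85), miR-181b-5p (0.83), miR-676 (0.83), miR-31a-5p (0.82) and miR-375-3p (0.81), all at or above 47.8% GC. The first 3 of each are printed with the seed in capitals, to be set beside the members above.
miR-192-5p: cTGACCTAtgaattgacagcc
miR-126a-5p: cATTATTActtttggtacgcg
miR-101b-3p: tACAGTACtgtgatagctgaa
miR-125b-2-3p: aCAAGTCAggctcttgggacct
miR-181b-5p: aACATTCAttgctgtcggtgggt
miR-676: cCGTCCTGagcttgtcgagcta
These correlations describe 18 libraries that share depth and base composition effects, and none of the 6 shares a seed with the members.

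The other leukocyte miRNAs were read from a list of 13 rows, of which 6 could be tested. In vehicle against lean 1 of the 6 fell, miR-142-5p, and none rose, with a list median of 0.02 against 0.01 over all tested miRNAs, where 6.25% were called (3.57% higher and 2.68% lower). In colesevelam against vehicle 1 fell, miR-150-5p, and 2 rose, with a list median of −0.07 against −0.01 and 10.7% called overall (7.14% higher and 3.57% lower). In colesevelam against lean 2 fell, miR-142-5p and miR-150-5p, and 2 rose, with a list median of −0.03 against −0.08 and 21.4% called overall (11.6% higher and 9.82% lower). The 2 that rose were miR-146a-5p and miR-146b-5p, which are induced by inflammatory signalling in many cell types, at 1.12 ± 0.27 and 1.27 ± 0.29 in colesevelam against vehicle (edgeR adjusted p = 0.0114 and 0.00880). miR-181a-5p and miR-181b-5p, known for lymphocyte development and also made in other tissues, were at −0.23 ± 0.35 and −0.38 ± 0.42 there (edgeR adjusted p = 0.781 and 0.694).

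**Figure D4:**
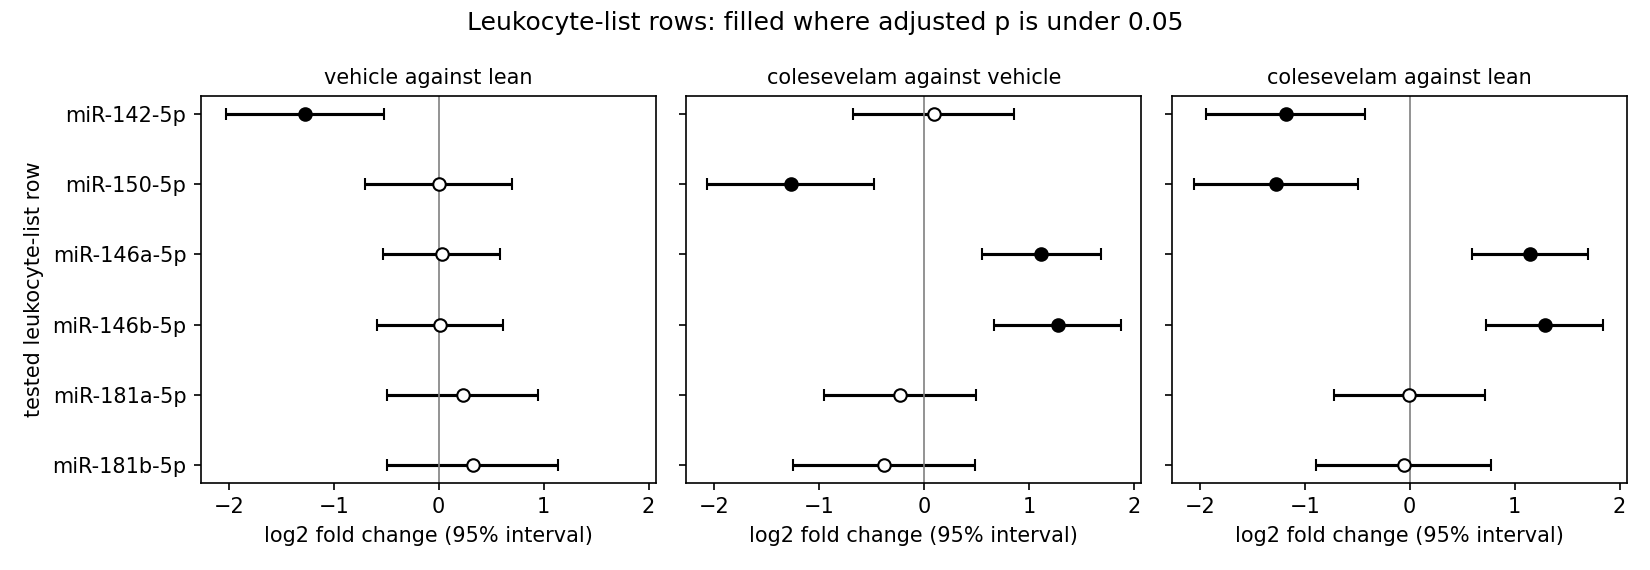
Log2 fold change with its 95% interval for the 6 tested rows of the leukocyte list in the 3 comparisons; filled points have an edgeR adjusted p under 0.05. miR-142-5p is filled in both comparisons with lean, miR-150-5p in both comparisons with colesevelam, and miR-146a-5p and miR-146b-5p lie on the other side of 0 there.

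The more lineage-bound leukocyte miRNAs were near the limit of detection. miR-223-3p, typical of granulocytes and other myeloid cells, had 104 counts in the lean group, 7 with vehicle and 8 with colesevelam, or 38.4 ± 28.8, 11.6 ± 12.9 and 16.7 ± 18.8 CPM (SD, n = 6). miR-342-3p, found in lymphocytes, had 55, 12 and 8 counts, or 27.0 ± 9.87, 25.3 ± 27.1 and 21.0 ± 21.9 CPM. miR-155-5p, known from activated lymphocytes and macrophages, had 12, 1 and 7 counts, or 8.68 ± 6.80, 1.96 ± 4.81 and 17.5 ± 14.5 CPM. miR-150-3p had 2 counts in lean and none in either obese group, and miR-223-5p and miR-342-5p had at most 4 counts in any group. None of these 6 passed the filter on low counts, and they carry no comparison.

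Markers of other cell types are given beside these levels, and their part in the results was not tested. The 3 erythroid rows, a measure of blood in the tissue, summed to 197 to 513 CPM in lean, 106 to 340 CPM in vehicle and 56.8 to 451 CPM in colesevelam libraries. The 1 of them tested, miR-451-5p, was not called in any comparison. The 2 endothelial rows summed to 5368 to 12310 CPM in lean, 3475 to 7947 CPM in vehicle and 5058 to 12563 CPM in colesevelam libraries, and none was called. The 6 stromal rows summed to 33778 to 48671, 35086 to 50519 and 32781 to 62432 CPM, with 3 tested and none called. The 5 biliary and other epithelial rows summed to 401 to 654 CPM in lean, 74.8 to 279 CPM in vehicle and 170 to 226 CPM in colesevelam libraries, without overlap of lean with either obese group, and the 1 tested, miR-200b-3p, was lower against lean in both. No row of the erythroid, endothelial, stromal, epithelial or hepatocyte list was at 0 throughout a group.

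The size of these differences depends on the scaling between libraries. In the authors' deposited table miR-142-5p stood at a log2 fold change of −3.69 in vehicle against lean (adjusted p = 1.4e-05), −0.35 in colesevelam against vehicle (adjusted p = 0.827) and −4.04 in colesevelam against lean (adjusted p = 2.8e-08). The authors' deposited table gave miR-150-5p −2.65 (adjusted p = 0.000133), −1.59 (adjusted p = 0.0118) and −4.24 (adjusted p = 9.9e-11), and no value for miR-142-3p. There the median of all miRNAs with a value was −2.41, −0.36 and −2.87, and 181 of 183, 102 of 127 and 182 of 182 lay below 0. The authors' size factors for vehicle against lean, which scale the libraries there, ran from 0.752 to 1.24. They did not follow depth: lean 2, with 881450 counts, had 0.885, and vehicle 3, with 37909 counts, had 1.24. Set against those medians of the authors' deposited table, miR-142-5p was at −1.27, 0.01 and −1.17 and miR-150-5p at −0.23, −1.23 and −1.36, so relative to other miRNAs the values lay near those of the fit with scaled totals, while the fall of miR-150-5p in vehicle against lean was of the size of the common shift.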

How the data were processed

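The 18 rat liver libraries come as 1 table of 401 mature miRNA rows. In it the authors give estimated counts that are not scaled between libraries; 297 of 7218 values were not whole, none of them in the 3 rows described. Bowtie 1.1.2 and DESeq2 1.18.1 are named per the submitters' processing notes. The counting tool, genome build and the selection of small RNA are not stated there. Per the file headers, the table also holds log2 fold changes, p-values and mean scaled counts of the authors' DESeq2 comparisons, and the last gave back the authors' size factors.

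After rounding, filterByExpr (minimum count 10, minimum total 15) left 112 rows. TMM factors ran from 0.814 to 1.19. The test was the robust quasi-likelihood F test of edgeR 4.0.16 (R 4.3.3) over all 18 libraries at an adjusted p of 0.05. All changes are relative to the bulk of other miRNAs in a library. Count ratios within a library (0.5 added to each count) were compared by exact two-sided permutation. Correlations used group-centred values and 100000 permutations within groups. limma 3.58.1 and DESeq2 1.42.0 served as alternatives. On data simulated for vehicle against lean over 112 rows, the fit called 17 of 20 rows changed by 2.4-fold and 1 unchanged row. The changed rows were drawn at random, and no level was made to move with depth or GC content. These numbers therefore need not hold for the members. The members and lists were chosen with earlier results of these data known. Named miRNAs were the members, the leukocyte list, and the 5 rows most like each tested member; the hepatocyte rows and the only tested rows of the erythroid and epithelial lists are named besides, outside that rule. No molecular identifiers were used, so intervals and floors (3 counts) cover counting error only.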

Additional observations from a re-analysis of the deposited data

Results flagged for a closer look

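In 3 of 21 sets of 6 libraries that were looked at, 1 library lay farther from the rest than the 95% limit of Dixon's test for its gap. That limit holds for normally distributed values, which sets of few counts are not, so the number of flags is not read as an excess. miR-142-5p stood at 1193 CPM in colesevelam 5, the deepest library of its group, where the next highest held 643 CPM. miR-142-3p stood at 10.03 CPM in the same library, from 1 count, with 0 in the other 5, and such a set is flagged at any value of that library. The log2 ratio of miR-150-5p to the hepatocyte rows stood at −11.09 in lean 6, where the next lowest lean library was at −9.20.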

How the results depend on the processing

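Under 14 other settings of the fit, 1 of them added after the data were seen, no call of miR-142-5p or miR-150-5p turned direction, and each of their 4 calls ended under at least 2. Depth limits all values of the obese groups. For miR-142-5p in vehicle against lean the call ended at log2 fold changes of −1.30 without miR-192-5p in the table, −1.30 in a fit of only these 2 groups, −1.13 with limma-voom and −0.24 with the library total as a covariate. In colesevelam against lean it ended at −1.04 with limma-voom and −0.18 with the library total. For miR-150-5p in colesevelam against vehicle it ended at −1.29 with upper-quartile factors, −1.58 with the authors' size factors, −1.15 with a filter of 50 CPM, −1.24 with a replicate block, −1.24 with libraries of one label number summed and −1.16 with limma-voom. In colesevelam against lean it ended at −1.17 with upper-quartile factors, −1.18 with summed libraries and −1.35 with the library total. The authors' size factors made miR-150-5p called in vehicle against lean, at −2.64. The cause of each was not tested.

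The number of called rows moved from 7 to 110 (authors' size factors) and 16 (GC slope as covariate) in vehicle against lean. In colesevelam against vehicle it moved from 12 to 6 (upper quartile), 2 (authors' size factors), 7 (no filter, replicate block, or summed libraries) and 24 (GC slope), and in colesevelam against lean from 24 to 109 (authors' size factors) and 43 (GC slope).

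The log2 ratio of miR-142-5p to the hepatocyte rows in colesevelam against lean was −1.17 with summed libraries and −0.96 with the replicate block. The smallest p these allow is 0.0286 and 0.0312 before adjustment over 12 tests, so the calls lost there say nothing about stability. Libraries of the same replicate number in different groups did not deviate together on average, so the block is a check only. Mean r was 0.01 for vehicle with lean, 0.01 for colesevelam with vehicle and −0.29 for colesevelam with lean over 6 pairs each. Single pairs ran from −0.59 to 0.56.

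Leaving out 1 library at a time, the log2 fold change of miR-142-5p ran from −1.47 to −1.04 in vehicle against lean and from −1.46 to −0.95 in colesevelam against lean, and that of miR-150-5p from −1.39 to −1.04 in colesevelam against vehicle, with calls lost as named above. The number of called rows in colesevelam against vehicle ran from 7 (without vehicle 6) to 12. The log2 ratio of miR-142-5p to the hepatocyte rows ran from −0.85 to −0.62 in vehicle against lean, passing only without vehicle 5, and from −1.06 to −0.83 in colesevelam against lean; that of miR-150-5p ran from −1.42 to −0.82 in colesevelam against lean, passing only without lean 6.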

Other observations

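The sources differ on the strand of miR-142. The deposited table lists both arms on the minus strand of chromosome 10, while RefSeq has the hairpin on the plus strand in GRCr8, with the same mature sequences.

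The library names carry a number that repeats within groups, with 4 distinct numbers in lean, 5 in vehicle and 4 in colesevelam, and its meaning is not given. Among the libraries that share it, lean 1 and 2 held 840 and 2610 CPM of miR-142-5p, lean 4 and 5 held 1532 and 838, vehicle 3 and 4 held 369 and 737, colesevelam 2 and 3 held 643 and 588, and colesevelam 4 and 5 held 482 and 1193. In the same order of pairs miR-150-5p stood at 814 and 1012, 703 and 730, 910 and 279, 304 and 122, and 348 and 281 CPM.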
